A study of Nothobranchius furzeri with 10 samples.

Results

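The 200 genes with the most reads in the brain of old killifish held 19.1 ± 0.669% of the counts in rotenone libraries and 19.3 ± 0.400% in DMSO libraries (SD, n = 5 each). They were chosen on their mean CPM (the count of a gene divided by the total of its library, times 1000000) over the 5 DMSO libraries, and they are 200 of the 26739 genes in the deposited count table. The turquoise killifish, Nothobranchius furzeri, is a fish with a very short life that is used to study ageing. Brain RNA of males of strain MZM-0410p, aged 27 weeks, was sequenced in 2 groups. These were 5 samples with rotenone at 15 pM and 5 samples with the solvent DMSO as control. Rotenone blocks complex I of the mitochondrial respiratory chain. The labels give no other treatment, and neither the route nor the length of the exposure. Nor do they state that every sample came from its own fish, so the tests weigh differences against the scatter of these samples, which may be technical.

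In bulk RNA sequencing the number of reads of a gene follows the number of its transcripts, their length and the share of cells that carry them. The most abundant protein-coding transcripts of a vertebrate brain usually come from genes of translation, of the cytoskeleton, of energy metabolism, of calcium and synaptic signalling and of myelin and other glial functions. Which of the 200 genes belong to these classes could not be read here, since the table gives identifiers and does not pair them with names. None of the 26739 identifiers occurs in the RefSeq table of 38438 genes that was used, so no role, sequence or marker check of the tissue is given. The genes are therefore called by their rank in mean DMSO CPM, from rank 1, the gene with the most reads, to rank 200.

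Totals ranged from 16693800 to 28047585 counts in rotenone libraries and from 15536771 to 31017835 counts in DMSO libraries. The median count of the 200 genes in a library was 11676 to 20865 with rotenone and 10996 to 22129 with DMSO, so counting error is small: a gene of this list would vary with a median coefficient of variation (CV, the SD divided by the mean) of 0.778% with rotenone and 0.759% with DMSO from counting alone. Rotenone replicate 1 stood apart from the other rotenone libraries in the order of these genes. Without named genes no value here checks the treatment of a library, so whether its label is right was not tested, and every value of rotenone against DMSO below rests on the labels. In bulk tissue, fewer cells of a type and less RNA per cell cannot be told apart.

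The 200 genes held a similar share of the counts in every library. The share was 19.3%, 19.3%, 18.6%, 18.4% and 20.1% in rotenone replicates 1 to 5, against 18.7%, 19.5%, 19.7%, 19.5% and 19.3% in DMSO replicates 1 to 5. The groups overlapped, with a difference of -0.19 percentage points (two-sided exact permutation p = 0.579; 0.722 adjusted by Benjamini-Hochberg for 3 such measures). The choice on DMSO favours a high share in DMSO, so the same was computed with the 200 most abundant genes of each library itself, which favours neither group. That share was 19.5 ± 0.665% with rotenone and 19.4 ± 0.387% with DMSO (mean ± SD, n = 5 each), a difference of 0.12 percentage points (two-sided exact permutation p = 0.722, adjusted p = 0.722).

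Within the list, reads were concentrated at the top. Ranks 1 to 10 held 3.40 ± 0.285% of the counts with rotenone and 3.63 ± 0.150% with DMSO, and ranks 11 to 50 held 5.52 ± 0.243% with rotenone and 5.58 ± 0.223% with DMSO (mean ± SD, n = 5 each). Ranks 51 to 100 held 4.21 ± 0.158% with rotenone and 4.18 ± 0.118% with DMSO, and ranks 101 to 200 held 6.02 ± 0.118% with rotenone and 5.95 ± 0.0677% with DMSO (mean ± SD, n = 5 each). No bin moved by more than the SD of its DMSO libraries except ranks 1 to 10, which were 0.22 percentage points lower with rotenone, and ranks 101 to 200, which were 0.07 higher. Both shifts were within the SD of the rotenone libraries, 0.285 and 0.118. The order on DMSO means also favours a lower value with rotenone at the top of the list. These bins were not tested. The genes at ranks 201 to 400 held 8.17 ± 0.291% with rotenone and 8.004 ± 0.0894% with DMSO (mean ± SD, n = 5 each), a difference of 0.17 percentage points. Rotenone replicate 1 held 7.66% and rotenone replicates 2 to 5 held 8.24% to 8.34%, against 7.93% to 8.13% in DMSO libraries. Without rotenone replicate 1 the groups did not overlap and the difference was 0.30 percentage points; it was not tested.

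The number of genes that together hold 50% of a library's counts does not depend on the choice of members. It was 1456 ± 43.9 genes with rotenone and 1490 ± 33.5 genes with DMSO (mean ± SD, n = 5 each), a difference of -33.6 genes that did not pass (two-sided exact permutation p = 0.230, adjusted p = 0.690). Single rotenone libraries needed 1527, 1441, 1450, 1456 and 1407 genes, against 1532, 1506, 1496, 1445 and 1470 genes in DMSO libraries. Without rotenone replicate 1, whose 1527 genes lay among the highest DMSO values, the difference was -51.3 genes (two-sided exact permutation p = 0.0476, not adjusted). Leaving out the highest rotenone value can only make the difference more negative. That p was also the lowest of 10 runs that each left out 1 library, with p up to 0.444, so it is a description.

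**Figure D1:**
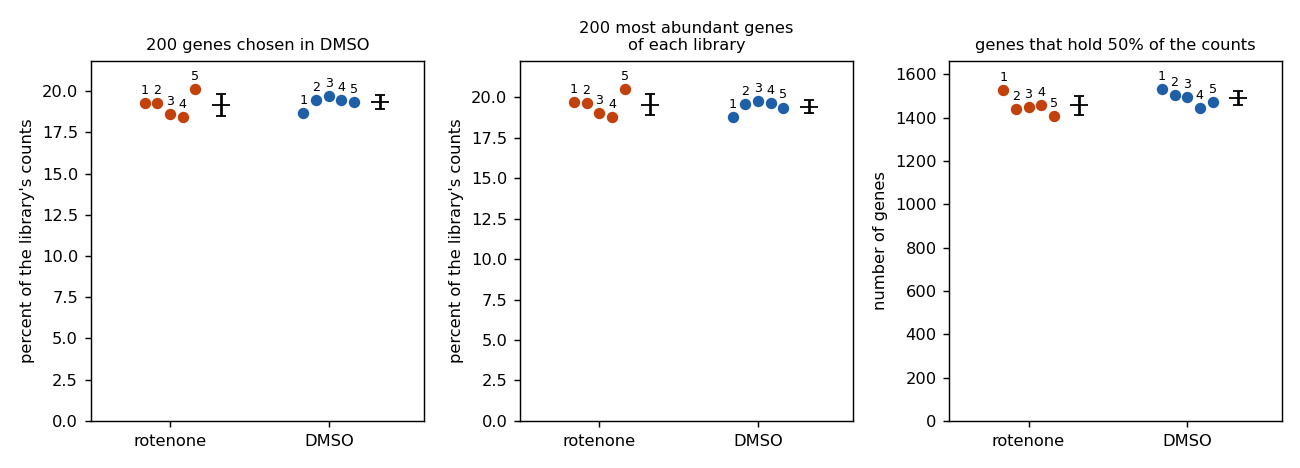
Share of counts and evenness by library. Left and centre, the percent of each library's counts held by the 200 genes chosen in DMSO and by the 200 most abundant genes of that library; right, the number of genes that hold 50% of the counts. Points are libraries numbered by replicate, and black marks are the mean ± SD of 5 libraries; the groups overlap in all 3 panels.

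The gene at rank 1 was the first in all 10 libraries. It had 11651, 7231, 7326, 7640 and 8583 CPM in rotenone libraries, against 7159, 9668, 10704, 7090 and 8148 CPM in DMSO libraries. The groups overlapped, with rotenone replicate 1 the highest of all 10 libraries. The log2 fold change was -0.01 (SE 0.16; adjusted p = 0.978 in edgeR), and -0.15 without rotenone replicate 1 (SE 0.13; adjusted p = 0.479 in edgeR). The gene at rank 2 had 3714, 1439, 1767, 2212 and 4376 CPM in rotenone libraries, against 5748, 5518, 3859, 2791 and 4578 CPM in DMSO libraries. Rotenone replicates 2, 3 and 4 lay under every DMSO library, while replicates 1 and 5 lay inside the DMSO range. Rank 4 showed 1537, 1221, 1706, 2260 and 4512 CPM in rotenone libraries, against 3621, 3811, 2788, 2467 and 3445 CPM in DMSO libraries. Its 4 lowest libraries were rotenone replicates 1 to 4, and rotenone replicate 5 was the highest of all 10. Neither gene passed the test, with log2 fold changes of -0.73 ± 0.31 (SE; adjusted p = 0.282 in edgeR) for rank 2 and -0.52 (SE 0.32; adjusted p = 0.427 in edgeR) for rank 4. Rank 3 averaged 4213 ± 672 CPM with rotenone and 3900 ± 440.3 CPM with DMSO (mean ± SD, n = 5 each). Rank 5 averaged 2545 ± 437 CPM with rotenone and 2830 ± 353 CPM with DMSO (mean ± SD, n = 5 each).

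Read counts also follow gene length. Gene lengths recovered from the deposited counts and RPKM values were available for all 200 genes, with a median of 3176 bases and a range of 321 to 30370. The median was 2756 bases over the 18229 tested genes with at least 1 CPM in DMSO and 4924 bases over ranks 201 to 400. When counts were divided by length, 106 of the 200 genes were also among the 200 highest in DMSO and 94 were not. The 106 genes had a median length of 1366 bases and the 94 others of 7143 bases, so the members that left the list per length were mostly longer ones. Per length, the 200 genes held 24.2 ± 0.976% with rotenone and 24.8 ± 0.708% with DMSO of the length-scaled counts (SD, n = 5 each). Rank 1 was also the highest gene per length in DMSO, and rank 17 was the third.

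The 44 members under 1000 bases held 3.58 ± 0.344% of the counts with rotenone and 3.69 ± 0.227% with DMSO (mean ± SD, n = 5 each). The 83 members of 1000 to 5000 bases held 9.02 ± 0.498% with rotenone and 8.97 ± 0.396% with DMSO, and the 73 members over 5000 bases held 6.54 ± 0.372% with rotenone and 6.68 ± 0.144% with DMSO (mean ± SD, n = 5 each). The order of the 3 classes was the same in both groups. The median log2 fold change was 0.08 in the short class, 0.09 in the middle class and 0.01 in the long class. A positive value was seen in 36 of 44, 67 of 83 and 37 of 73 members, beside 51.9% of all tested genes of any length. These classes were not tested against each other.

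The order of the 200 genes was largely kept from library to library. Of the 200, 141 were among the 200 most abundant genes of each of the 10 libraries and 189 were within the first 400 of each. Of ranks 1 to 50, 49 stayed within the first 200 everywhere, and the exception was rank 17. The lists of 200 chosen on rotenone and on DMSO means shared 181 genes, which is the same share of each list, and the 19 genes that entered all came from DMSO ranks up to 276. A rotenone library had 171 to 177 of the 200 members in its own top 200 and a DMSO library 187 to 189, a gap that the choice on DMSO favours: with members chosen on rotenone instead, the mean was 184 with rotenone and 178 with DMSO.

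Ranks moved more towards the end of the list. Over the 5 libraries of a group, the median distance between the best and the worst rank of a gene was 5 places with rotenone and 4.5 with DMSO for ranks 1 to 10. It was 16 places with rotenone and 10 with DMSO for ranks 11 to 50, 36 with rotenone and 23 with DMSO for ranks 51 to 100, and 66 with rotenone and 53 with DMSO for ranks 101 to 200. Neighbouring ranks there differ by less than the replicate spread: rank 200 had 527 ± 55.95 CPM with rotenone and 501 ± 35.0 CPM with DMSO, and rank 201, the first gene outside, 569 ± 68.1 CPM with rotenone and 501 ± 34.03 CPM with DMSO (mean ± SD, n = 5 each).

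Across the 200 genes, which are not independent replicates, the Spearman correlation of CPM between 2 libraries was 0.683 to 0.946 among the 10 rotenone pairs (median 0.861) and 0.830 to 0.932 among the 10 DMSO pairs (median 0.883). Between a rotenone and a DMSO library it was 0.737 to 0.902 (median 0.822, 25 pairs). Rotenone replicate 1 had 0.683 to 0.786 with the other 4 rotenone libraries and 0.750 to 0.902 with the DMSO libraries, so the order of its abundant genes was nearer to DMSO replicates 1, 2 and 3 than to any library of its own group. Without it, the 6 rotenone pairs had 0.859 to 0.946 (median 0.893).

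**Figure D2:**
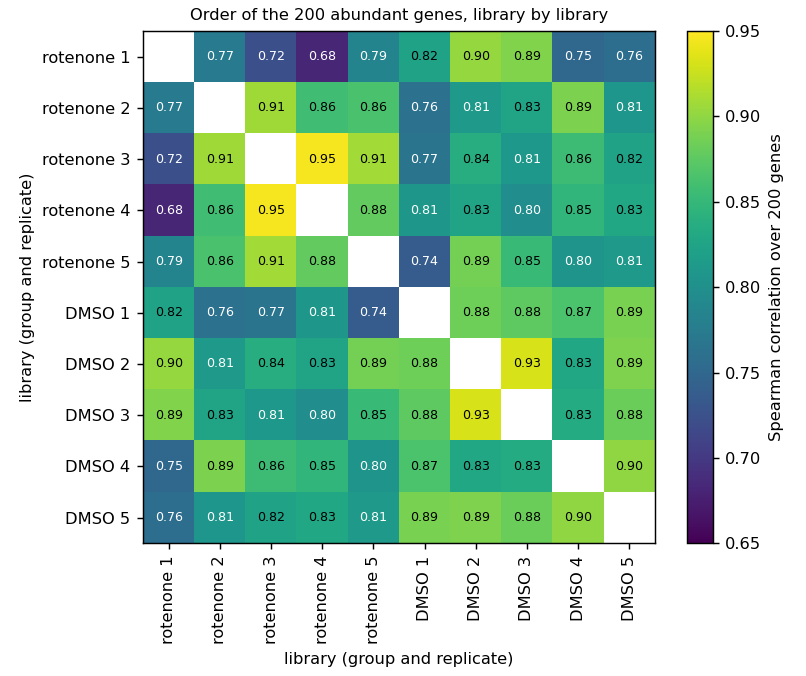
Spearman correlation of CPM over the 200 abundant genes for each pair of the 10 libraries, by group and replicate, with the colour scale giving the correlation. The first line, rotenone replicate 1, is low against the other rotenone libraries (0.683 to 0.786) and reaches 0.902 with DMSO replicate 2.

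The spread between libraries was modest for most members. With CPM scaled by TMM (trimmed mean of M-values), the median CV was 10.3% with rotenone (quartiles 8.07% and 14.6%) and 7.84% with DMSO (quartiles 5.79% and 10.8%), over 10 times the spread that counting alone gives. The CV was under 10% for 90 of 200 members with rotenone and 141 of 200 with DMSO, and over 25% for 22 members with rotenone and 12 with DMSO. Beside them, the median over the 18229 tested genes with at least 1 CPM in DMSO was 13.4% with rotenone and 10.3% with DMSO, and over ranks 201 to 400 it was 10.4% with rotenone and 7.07% with DMSO. The members' median CV in DMSO was thus above that of the next 200 genes and below that of all tested genes; these medians were not tested against each other.

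The wider spread with rotenone was smaller without rotenone replicate 1. The CV was higher with rotenone than with DMSO in 159 of the 200 members and in 70.4% of the 18229 genes. Without rotenone replicate 1 it was higher in 118 of the 200 members and in 52.3% of the 18229 genes, and the members' median CV with rotenone was 8.58%. No test was run on these spreads.

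**Figure D3:**
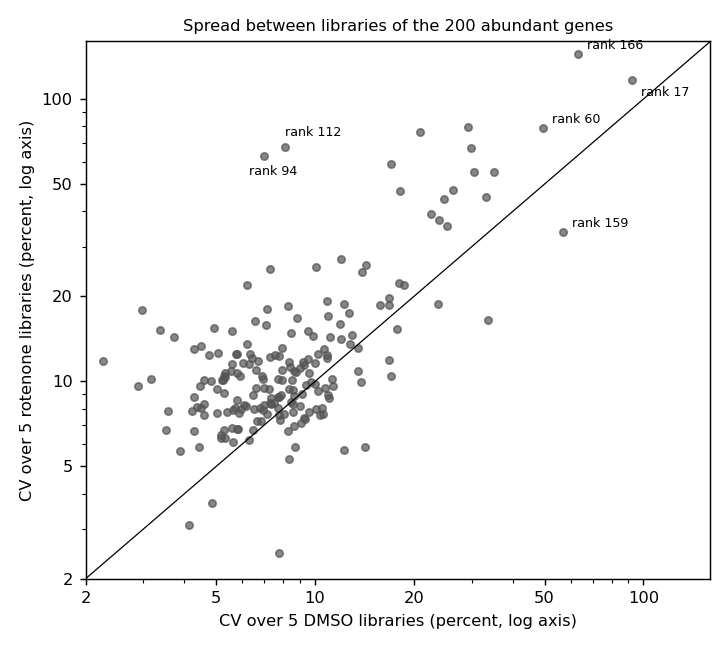
CV of TMM-scaled CPM over the 5 rotenone libraries (vertical) against that over the 5 DMSO libraries (horizontal), in percent on log axes, for each of the 200 abundant genes; the line marks equal values. Of the 200 points, 159 lie above the line, and ranks 94 and 112 have a CV over 50% with rotenone and under 10% with DMSO.

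The most even members in DMSO lay at ranks 158, 51, 181, 154 and 37. Rank 158 had 492, 657, 617, 646 and 678 CPM in rotenone libraries, against 568, 596, 570, 566 and 587 CPM in DMSO libraries. Its CV was 11.9% with rotenone and 2.26% with DMSO, and rotenone replicate 1 was the lowest of all 10 libraries while the other 4 rotenone libraries lay above every DMSO library. The other 4 had a CV of 9.64% to 17.9% with rotenone and 2.89% to 3.36% with DMSO. These 5 genes were picked as the lowest of 200 in DMSO, a choice that favours a lower CV there. Rank 45 is among the genes that were even in both groups, with a CV of 3.10% with rotenone and 4.12% with DMSO; it was picked after its values were seen.

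The most uneven members in DMSO lay at ranks 17, 166, 159, 60 and 169. Rank 17, a gene model of 615 bases, had 486, 1235, 3.96, 427 and 6.29 CPM in rotenone libraries, against 1132, 539, 679, 4546 and 2148 CPM in DMSO libraries. It was the third most abundant gene of DMSO replicate 4 and ranked 14961 in rotenone replicate 3, where 98 reads were counted. Rank 166, a gene model of 1904 bases, had 291, 971, 8.16, 130 and 0.992 CPM in rotenone libraries, against 247, 317, 436, 1107 and 658 CPM in DMSO libraries. Rotenone replicates 3 and 5 were the lowest for both genes, and DMSO replicate 4 was the highest for both. The pair did not keep 1 ratio: rank 17 over rank 166 was 0.485 to 6.33 in rotenone libraries and 1.56 to 4.59 in DMSO libraries.

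The CV of rank 17 was 117% with rotenone and 92.0% with DMSO, and that of rank 166 was 144% with rotenone and 63.4% with DMSO. In DMSO, 99.8% of the 18229 genes had a smaller CV than rank 17. Neither gene passed the test, with log2 fold changes of -2.07 ± 1.24 (SE; adjusted p = 0.419 in edgeR) for rank 17 and -0.98 (SE 1.18; adjusted p = 0.707 in edgeR) for rank 166. By the mean of the rotenone libraries they ranked 267 and 538. The choice on DMSO therefore favours lower values with rotenone in both, and their values are a description. The pair lies 20946 lines apart in the count table, whose order need not follow the genome. Whether other gene copies share their reads was not tested.

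The other uneven members followed other libraries. Rank 60 had 1761, 687, 357, 371 and 540 CPM in rotenone libraries, against 866, 1006, 1634, 382 and 749 CPM in DMSO libraries, so that rotenone replicate 1 and DMSO replicate 3 were high and DMSO replicate 4 was low. Rank 169 had 594, 250, 187, 192 and 313 CPM in rotenone libraries, against 516, 619, 759, 244 and 611 CPM in DMSO libraries, with the same low DMSO library and the same high rotenone library. Rank 159 had 201, 343, 270, 189 and 411 CPM in rotenone libraries, against 416, 586, 580, 215 and 1089 CPM in DMSO libraries. DMSO replicate 4 was again the lowest of its group, and DMSO replicate 5 was the highest. By the mean of the rotenone libraries, ranks 159 and 169 ranked 531 and 459. Both are in the list through the DMSO libraries, so their values are a description.

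The comparison of rotenone with DMSO asks whether the exposure shifts these genes. Of the 200, 1 passed edgeR's quasi-likelihood test at an adjusted p under 0.05, 0 of them higher and 1 lower, where 0.749% of all 19628 tested genes passed. All 200 members were tested. At an unadjusted p under 0.05 there were 23 members, or 11.5%, and 16.4% of all tested genes. That count was 57 without rotenone replicate 1, or 28.5% of members beside 29.4% of all genes tested in that fit. It was 41 without rotenone replicate 4, or 20.5% beside 17.2% of all genes tested in that fit. Without rotenone replicate 2, DMSO replicate 1 or DMSO replicate 5 it was 14, or 7%. All genes tested in those fits had 12.5%, 11.8% and 13.4%, so the share over all genes moved as well. The median log2 fold change was 0.07 over the members, with quartiles of -0.04 and 0.12, and 0.01 over all tested genes. Of the members, 140 had a positive value, or 70%, beside 65.5% of ranks 201 to 400 and 51.9% of all tested genes. Within 1.2-fold lay 175 members, or 87.5%, against 91% of ranks 201 to 400 and 74.8% of all tested genes. The median standard error was 0.09 over the members, 0.08 over ranks 201 to 400 and 0.12 over all tested genes. The DMSO libraries that chose the members also stand on one side of this comparison, so the counts are descriptions.

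A fold change past 1.5-fold was seen in 9 members (4.5%), all of them negative, and in 7.22% of all tested genes in either direction. Most such changes over all tested genes were negative too, with 1079 negative and 339 positive. In the fit without rotenone replicate 1, 1920 were negative and 333 positive. Without that library there were 17 such members (8.5%), all negative, beside 11.4% of all genes tested in that fit. Without any other 1 library there were 9 to 11, beside 6.39% to 8.52% of all genes tested in those fits. With all 10 libraries they lay at ranks 2, 17, 72, 100, 106, 159, 166, 169 and 191. The choice on DMSO favours negative values. With the 200 genes chosen on all 10 libraries there were 5 negative and 0 positive changes past 1.5-fold, and with the 200 chosen on rotenone there were 1 negative and 0 positive. The median log2 fold change was 0.08 with each of these 2 lists.

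The 5 rotenone values lay on one side of the 5 DMSO values in 3 members, or 1.5%, where this held for 3.69% of all tested genes. These were ranks 106 and 191, lower with rotenone, and rank 195, higher with rotenone. DESeq2, another count test, called 7 members, 2 higher and 5 lower, where it called 4.32% of all tested genes.

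**Figure D4:**
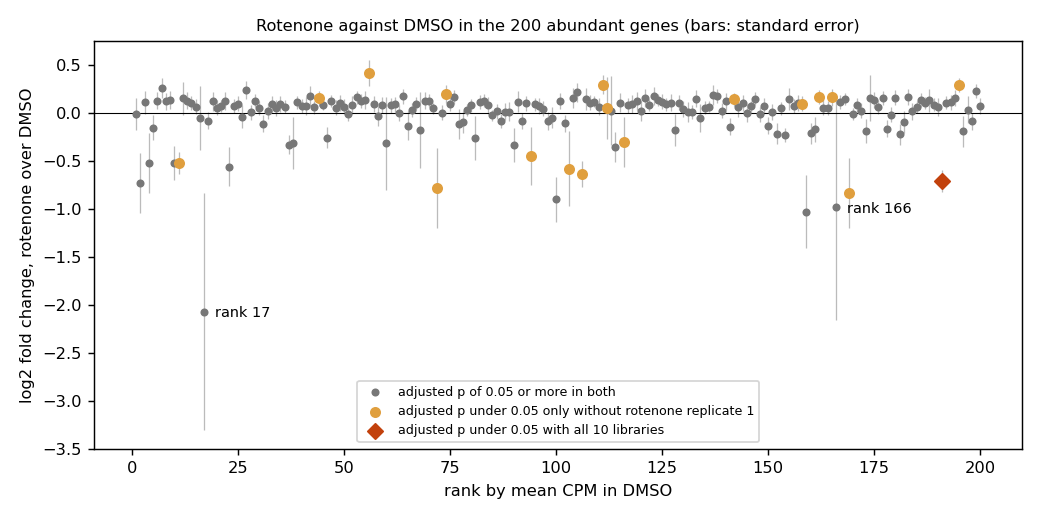
Log2 fold change of rotenone over DMSO (vertical, bars are the standard error) against the rank in mean DMSO CPM (horizontal) for the 200 abundant genes. Most points lie near 0; the diamond is rank 191, the single gene past an adjusted p of 0.05 with all 10 libraries, and the widest bars are those of ranks 17 and 166.

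The member that passed was Nfu_g_1_008727, at rank 191, with a gene model of 3556 bases. It is in the list through the DMSO libraries, where it is higher: by the mean of the rotenone libraries it ranked 437, and it is not among the 200 genes chosen on all 10 libraries. Its values are therefore a description. It had 289, 325, 337, 257 and 358 CPM in rotenone libraries, against 503, 412, 591, 539 and 506 CPM in DMSO libraries. Every rotenone library lay under every DMSO library, with the highest rotenone value at 358 CPM and the lowest DMSO value at 412 CPM. It averaged 313 ± 40.1 CPM with rotenone, against 510.2 ± 65.2 CPM with DMSO (mean ± SD, n = 5 each), with -0.71 ± 0.11 as its log2 fold change (SE; adjusted p = 0.0261 in edgeR). The call was lost in edgeR without any 1 of 6 libraries: the adjusted p was 0.0803 and 0.0808 without rotenone replicates 2 and 3, and 0.0718, 0.0633, 0.0693 and 0.0795 without DMSO replicates 1, 3, 4 and 5.

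Ranks 11, 106 and 195 did not pass edgeR with all 10 libraries. DESeq2 called all 3, with adjusted p = 0.00103, 0.00155 and 0.00898, and so did edgeR without rotenone replicate 1, with adjusted p = 0.0206, 0.0184 and 0.0183, for ranks 11, 106 and 195 in each case. Rank 11 had 1590, 1426, 1333, 1247 and 1751 CPM in rotenone libraries, against 2173, 2013, 1739, 2353 and 2295 CPM in DMSO libraries. The groups overlapped by 1 library, since rotenone replicate 5 was above DMSO replicate 3, and the log2 fold change was -0.53 (SE 0.11; adjusted p = 0.0699 in edgeR). Rank 106 is in the list through the DMSO libraries, where it is higher: by the mean of the rotenone libraries it ranked 258. Its values and calls are therefore a description. It had 520, 470, 429, 513 and 311 CPM in rotenone libraries, against 665, 580.0, 706, 745 and 783 CPM in DMSO libraries. Its groups did not overlap, and the log2 fold change was -0.64 (SE 0.14; adjusted p = 0.0714 in edgeR). Rank 195 had 551, 704, 658, 594 and 583 CPM in rotenone libraries, against 492, 495, 526, 530.3 and 490 CPM in DMSO libraries, with a log2 fold change of 0.29 ± 0.07 (SE; adjusted p = 0.114 in edgeR).

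Without rotenone replicate 1, edgeR called 18 of the 200 members. Of these, 9 were higher with rotenone, where 5.08% of all 19736 genes tested in that fit were called higher, and 9 were lower, where 6.01% of all genes were called lower. The choice on DMSO favours lower values. By the mean of the rotenone libraries, the lower members at ranks 72, 103, 106, 169 and 191 ranked 212, 232, 258, 459 and 437. Those at ranks 11, 94, 112 and 116 ranked 25, 177, 113 and 181. These means include rotenone replicate 1, the highest rotenone library for ranks 94, 112 and 116. In rotenone replicates 2 to 5 those genes had 335 to 465, 413 to 519 and 352 to 481 CPM. The gene in place 196 by rotenone means, near the end of a list chosen on rotenone, averaged 516 CPM with rotenone. All of these values lay under it except that of rank 112 in rotenone replicate 2, at 519 CPM. The calls of ranks 94, 112 and 116 without replicate 1 are therefore a description. In the 9 higher members the log2 fold change was 0.17 to 0.52 (median 0.24), and in the 9 lower members it was -1.40 to -0.46 (median -0.69). Rotenone replicate 1 was the lowest rotenone library in 9 of the 9 higher members and the highest in 7 of the 9 lower members. Choosing members by their call without that library favours this pattern, so the counts are a description. Which property of that library moves with these values was not tested.

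The 4 lower members in which rotenone replicate 1 was the highest of all 10 libraries were ranks 94, 103, 112 and 116, singled out after their values were seen. Rank 94 had 1141, 465, 335, 372 and 398 CPM in rotenone libraries, against 784, 702, 781, 766 and 668 CPM in DMSO libraries. Replicates 2 to 5 of rotenone lay under every DMSO library and replicate 1 above them all. The log2 fold change was -0.91 without rotenone replicate 1 (SE 0.10; adjusted p = 0.00243 in edgeR) and -0.45 with it (SE 0.31; adjusted p = 0.482 in edgeR). Rank 112 had 1528, 519, 509, 413 and 502 CPM in rotenone libraries, against 758, 678, 598, 678 and 638 CPM in DMSO libraries. Its log2 fold change was -0.46 without rotenone replicate 1 (SE 0.08; adjusted p = 0.0125 in edgeR) and 0.05 with it (SE 0.33; adjusted p = 0.953 in edgeR), so its sign turned. The choice on DMSO favours lower values in the rotenone libraries that remain. The values and calls of ranks 94 and 112 without rotenone replicate 1 are therefore a description.

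Rank 72 had 1186, 404, 263, 237 and 386 CPM in rotenone libraries, against 1300, 687, 795, 784 and 695 CPM in DMSO libraries, the lower member with the largest change without rotenone replicate 1. By the mean of the rotenone libraries it ranked 212, so it is in the list through DMSO and its values are a description. Its log2 fold change was -1.40 without that library (SE 0.23; adjusted p = 0.00909 in edgeR) and -0.78 with it (SE 0.42; adjusted p = 0.372 in edgeR). Among the higher members, rank 56 had 902, 1514, 1446, 1275 and 1158 CPM in rotenone libraries, against 878, 859, 882, 1046 and 1041 CPM in DMSO libraries. Replicates 2 to 5 of rotenone lay above every DMSO library and replicate 1 among them, with a log2 fold change of 0.52 without it (SE 0.10; adjusted p = 0.0149 in edgeR) and 0.42 with it (SE 0.13; adjusted p = 0.180 in edgeR). The other higher members, at ranks 44, 74, 111, 142, 158, 162, 165 and 195, changed by a log2 fold change of 0.17 to 0.38 in the fit without it.

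**Figure D5:**
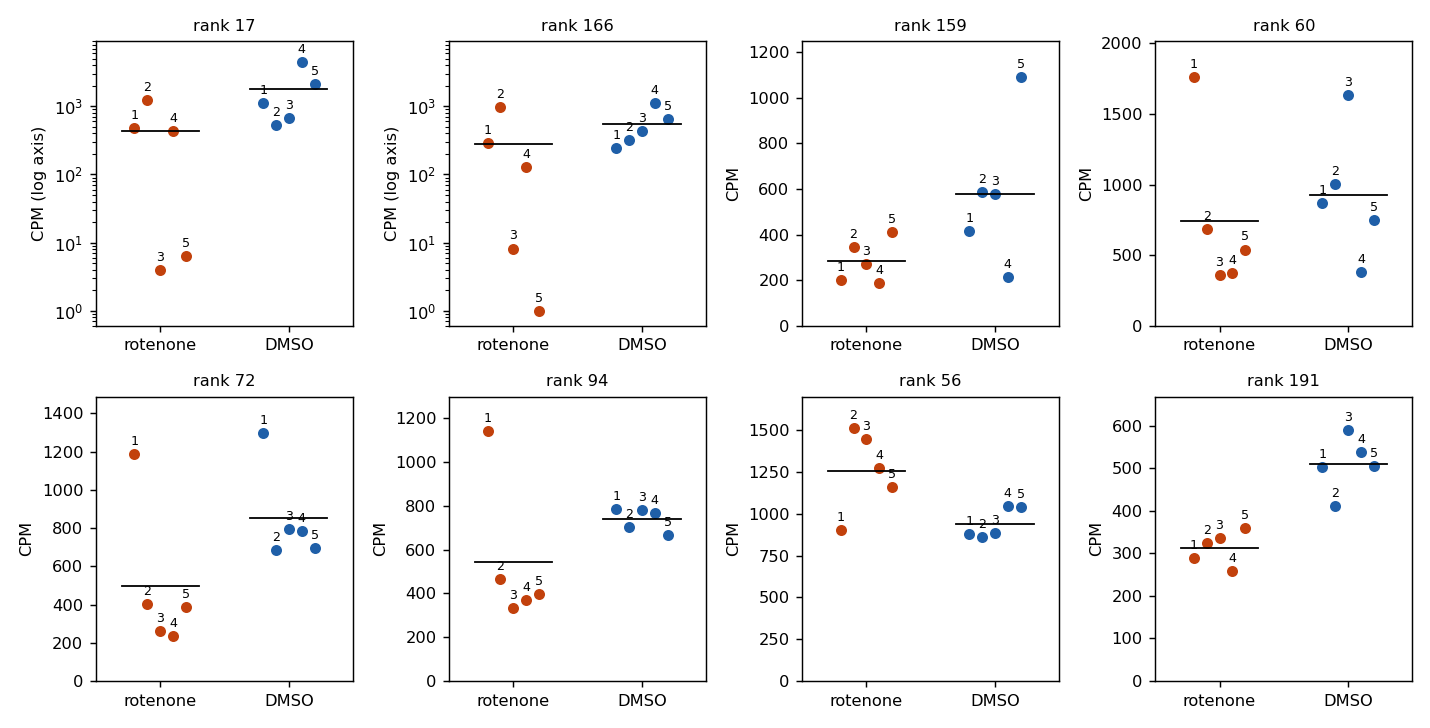
CPM of 8 abundant genes in each library, rotenone left and DMSO right, numbered by replicate, with the group mean as a line; ranks 17 and 166 are on a log axis and the others on linear axes from 0. Rotenone replicates 3 and 5 are near the bottom for ranks 17 and 166, rotenone replicate 1 is far above the other rotenone libraries for ranks 60, 72 and 94, and the groups do not overlap for rank 191.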

How the data were processed

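Per the labels' protocols, libraries were made from total RNA with the TruSeq RNA Library Preparation Kit v2, which does not mark strand. Tools listed, per the submitters' processing notes, were featureCounts 1.4.6-p4, STAR 2.4.1d and bcl2fastq 1.8.4. A genome build was not given in the sources used here. Without strand, reads of overlapping or antisense genes cannot be told apart. The authors deposited whole-number read counts per gene and a table of RPKM values. The deposited RPKM fitted the counts only when library totals were taken in turn down the columns (median CV of the implied gene length 0.00256%, against 30.9% with each library's own total, over 14242 genes), so RPKM served only to recover gene lengths, for 22937 genes.

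CPM was computed from column totals, and CVs from TMM-scaled CPM. Rotenone was compared with DMSO over the whole table in edgeR 4.0.16 (R 4.3.3): filterByExpr defaults (minimum count 10, minimum total 15), TMM, quasi-likelihood test, Benjamini-Hochberg adjustment, threshold 0.05. The standard errors given for edgeR fold changes are not an output of edgeR. Each is the absolute log2 fold change divided by the square root of the F statistic of that test. The script was tested on simulated data. Library measures were compared by two-sided exact permutation over 252 relabelings. Alternatives used DESeq2 1.42.0, limma 3.58.1 (voom), other scalings and filters, other choices of members and leaving out each library. The members, measures and alternatives were chosen with earlier results of these data known. The naming rule took up to 2 called members per direction by identifier, and gave the 5 with the largest and the 5 with the smallest DMSO CV by rank; marker lists could not be used without gene names. Replicates were numbered in accession order. Figures were drawn with matplotlib 3.10.9.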

Additional observations from a re-analysis of the deposited data

Results flagged for a closer look

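In 42 groups of 5 values the gap between the outermost library and its nearest neighbour was compared with the range of the group. Of these, 2 exceeded Dixon's limit of 0.71 for 5 samples. Chance marks about 1 in 20 where values are independent. These groups came from the same libraries, and the mean correlations of a group share pairs of libraries, so that rate need not hold here. The number of flags is therefore a description. Both flags concern rotenone replicate 1. Its mean Spearman correlation with the other rotenone libraries over the 200 abundant genes was 0.741, where the other 4 had 0.841 to 0.871. The gene at rank 60 had 1761 CPM in it, where the other rotenone libraries had 357 to 687 CPM. The 42 groups did not cover every set of values given above. The share of ranks 201 to 400 and the CPM of rank 112, where rotenone replicate 1 also lay far from the other rotenone libraries, were not among them. The 2 flags therefore do not count how often that library stood apart.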

How the results depend on the processing

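The share of counts turned positive, by 0.330 percentage points (p = 0.421) with members chosen on rotenone, 0.118 (p = 0.722) with the 200 genes of each library itself and 0.000242 (p = 1) with 500 members, all by exact permutation; leaving out 1 library gave -0.441 to -0.0168. The genes for 50% of the counts differed by -51.3 to -21.3 without 1 library (exact permutation p = 0.0476 to 0.444, not adjusted). The lowest p came without rotenone replicate 1, the highest rotenone value, whose removal can only make the difference more negative. Called members numbered 7 of 200 with DESeq2 (2 higher, 5 lower), or 3.5% beside 4.32% of all tested genes. Other choices of members used the main fit, where 0.749% of all tested genes were called. They gave 0 with members chosen on all 10 libraries (0 lower) or with 100 members (0 lower), and 4 of 500 with 500 members (2 higher, 2 lower). Members chosen on rotenone, a choice that favours higher values, gave 2 (2 higher, 0 lower). Leaving out 1 library gave 0 to 18 called, 0 to 9 higher and 0 to 9 lower: 18 without rotenone replicate 1, 2 without rotenone replicate 4 or 5, and 0 without rotenone replicate 2 or 3 or DMSO replicate 1, 3, 4 or 5. The cause was not tested, and these fits also have fewer samples. In the fit without rotenone replicate 1, 5.08% of all 19736 tested genes were called higher and 6.01% lower. The share of all genes called is not given for the other fits that left out 1 library. Their counts therefore do not show whether the members moved apart from all genes. The medians of CV and fold change moved by less than the replicate spread in all alternatives run. No paired analysis was possible because no label ties a sample of one group to a sample of the other. With 5 libraries a group, changes of the size of the median standard error, 0.09 on the log2 scale, cannot be called.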

Other observations

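The pattern of ranks 17 and 166, with rotenone replicates 3 and 5 each under 0.1 times the lowest of the other 8 libraries, was looked for after their values had been seen. Of the 18229 tested genes with at least 1 CPM in DMSO, 5 had it, 2 of them the abundant pair, and the most abundant of the others averaged 169.99 CPM in DMSO. Over the 44 other pairs of libraries, at most 2 genes were low in that way, and 41 of the pairs had 0. The 5 genes could not be named.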
